A study of Homo sapiens with 7 samples.

Results

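The kallikrein locus on chromosome 19 was described through FOXA1 and SETD7 peaks. It was taken as all peaks whose midpoint lay between 51300000 and 51600000 on chromosome 19 of build hg19, a window chosen to hold the cluster with KLK2, KLK3 and KLK4. The window held 83 of the 467188 peaks in the series. Merging peaks that overlapped by at least 1 bp gave 31 sites, of 193692 in all, and 30 of the 31 held a FOXA1 peak.

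Chromatin immunoprecipitation sequencing had been done on 2 established human prostate cancer lines, LNCaP and 22Rv1 (the labels' CWR22-Rv1), grown in medium with fetal bovine serum, and each of the 7 libraries was represented by 1 peak list. In 22Rv1, the FOXA1 libraries came from vehicle cells, from cells carrying a control hairpin (shCTL) and from cells carrying one that targets SETD7 (shSETD7), and a SETD7 library came from vehicle cells. The LNCaP libraries, all for FOXA1, came from cells treated for 4 hours with DMSO, with the LSD1 inhibitor GSK2879552, or with GSK2879552 plus the SETD7 inhibitor PFI-2, here called the combination. Each group had 1 library, so conditions could not be tested against a spread between replicates. The combination was taken from its sample title, because its treatment label reads with or without PFI-2. Doses, the number of hairpins or clones and the SETD7 level after knockdown were not analysed here. In the list of the vehicle FOXA1 library, the tag siNTC stands in each of the 65461 peak names; no label mentions it, and the name vehicle here follows the label.

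Kallikreins are secreted serine proteases. KLK3 encodes prostate-specific antigen, KLK2 encodes a trypsin-like protease that can activate it, and KLK4 is a further prostate protease; in prostate luminal cells all of them are induced by androgen. FOXA1 is a forkhead pioneer factor that binds enhancers in closed chromatin and opens them to the androgen receptor, and an enhancer upstream of KLK3 is a much-used model of androgen receptor binding. SETD7 is a lysine methyltransferase, and LSD1 a lysine demethylase.

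In RefSeq (GRCh38.p14) the 16 kallikrein genes, the pseudogene KLKP1 included, lie in the order KLK1, KLK15, KLK3, KLK2, KLKP1, KLK4, KLK5, KLK6, KLK7, KLK8, KLK9, KLK10, KLK11, KLK12, KLK13 and KLK14. An hg19 annotation was not used here. The sites are therefore given by position, and none is assigned to a gene or promoter.

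Promoter sequence was at hand for 13 of the 16 genes, with 22 transcription starts (RefSeq, GRCh38.p14; KLK1, KLK8 and KLKP1 were not matched). The forkhead core, written as TGTTTAC or TGTTTGC and searched on both strands of the 250 bases before each start, was in none of the 22. It was in 6.09% of all 35116 promoters in the table. The androgen receptor half-site AGAACA, also on both strands, was in the KLK3 promoter alone of the 22 and in 12.4% of all promoters. Only exact letters were searched. Variant sites were not counted, so a promoter without these letters may still hold a site. The stretches of KLK3 and KLK2 that align without gaps, on the + strand, are shown because they show how alike the starts of these androgen-induced neighbours are. Capitals mark the half-site of KLK3 and the same place in KLK2.
KLK3: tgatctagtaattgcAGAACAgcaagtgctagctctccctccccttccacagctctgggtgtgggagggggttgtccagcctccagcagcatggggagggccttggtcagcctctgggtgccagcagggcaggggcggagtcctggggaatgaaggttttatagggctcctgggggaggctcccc
KLK2: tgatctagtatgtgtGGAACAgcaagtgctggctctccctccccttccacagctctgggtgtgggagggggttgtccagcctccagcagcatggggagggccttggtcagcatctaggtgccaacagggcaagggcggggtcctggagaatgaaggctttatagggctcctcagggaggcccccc
The KLK3 stretch ends 1 base before the start of transcription and the KLK2 stretch 7 bases before it. They are identical at 170 of 185 bases (91.9%). The stretches were set at the best-matching offset and begin at the first run of identical bases. The bases before that run were left out, so this share holds for a stretch chosen by likeness. Counted from the first printed base, with KLK3 first, the change inside the capitals is A16G. Whether any FOXA1 peak lies at these promoters was not analysed here.

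The window was rich in FOXA1 sites for its chromosome. Chromosome 19 was divided into windows of 300 kb, of which 189 held a FOXA1 site. The kallikrein window had 30 sites, against a median of 15 and a highest value of 34, and 4 windows, itself included, had at least 30. It had 4 sites in all 6 FOXA1 lists, against a median of 2, and 25 windows had at least as many. These are counts of the same lists, given as a description.

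**Figure D1:**
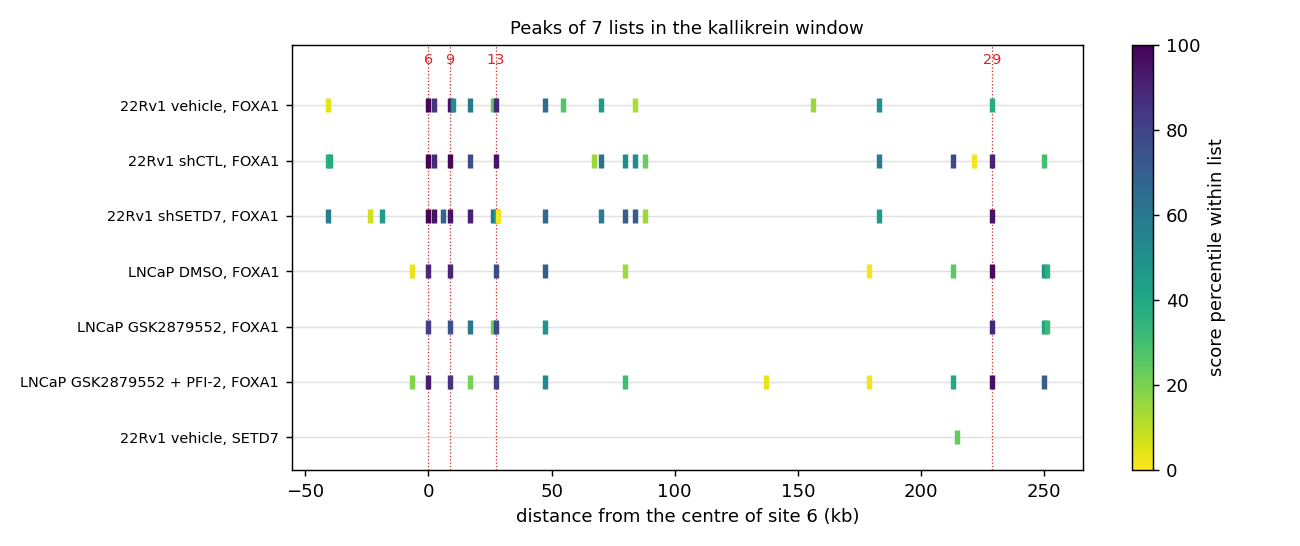
Position of every peak in the kallikrein window, as distance in kb from the centre of site 6, with 1 row for each of the 7 lists; colour is the score percentile within the list, and dotted lines mark the 4 sites found in all 6 FOXA1 lists (6, 9, 13 and 29). Dark marks stand together at sites 6, 9 and 13, within 27.3 kb, and again at site 29, 229 kb away.

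Sites were numbered along the chromosome. Sites 1 to 21 lay in the first 134 kb of the window and sites 22 to 31 in the last 118 kb, with a gap of 48.8 kb between sites 21 and 22, the widest between neighbouring sites. Sites 6 to 13, all FOXA1 sites, spanned 27.3 kb between the centres of the outer ones.

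The peak score is the authors' own whole number for each peak, whose definition is not given in the sources used here. It was ranked only within a list, as a percentile: the share of that list's peaks with a lower score, counting ties by their average rank. The lists differ in length and in lowest score, so percentiles of different lists are not on a common scale. Read depth is unknown from peak lists. Median percentiles of the window's FOXA1 peaks were 49.9 in vehicle, 58.8 in shCTL, 64.6 in shSETD7, 49.7 with DMSO, 60.5 with GSK2879552 and 46.8 with the combination. Percentiles of the FOXA1 peaks in the window ranged from 1.31 to 99.4.

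Of the 30 FOXA1 sites, 4 were in all 6 FOXA1 lists, or 13.3% (95% Wilson interval 5.31 to 29.7, for counting error only, as for all intervals here). Over all 173152 merged FOXA1 sites the share was 8.42%. Of the others, 2 sites were in 5 lists, 2 in 4, 7 in 3, 4 in 2 and 11 in 1 list. The share in 1 list was 36.7% (21.9 to 54.5), against 38.8% over all FOXA1 sites.

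Site 6, at chr19:51345229-51345902, had the highest percentile of the window in the vehicle, shCTL and shSETD7 lists. Its scores were 1012 in vehicle, 5472 in shCTL and 3474 in shSETD7, at percentiles 98.1, 99.4 and 98.9. In LNCaP its scores were 712 with DMSO, 499 with GSK2879552 and 961 with the combination, at percentiles 88.6, 81.8 and 92.0. Its percentile was lowest with GSK2879552, at 81.8, and highest in shCTL, though percentiles of different lists are not on a common scale. The 6 peaks were 437 to 674 bp wide, and their midpoints lay within 27 bp of one another.

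Site 9, at chr19:51353879-51354492, lay 8.62 kb from site 6. It scored 552 in vehicle, 3143 in shCTL and 1103 in shSETD7, at percentiles 94.4, 98.2 and 94.6. With DMSO, GSK2879552 and the combination it scored 752, 400 and 663, at percentiles 89.7, 75.2 and 84.6. Its lowest percentile was with GSK2879552, again without a common scale between lists. Its peak midpoints lay within 40 bp.

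Site 13, at chr19:51372585-51373228 and 27.3 kb from site 6, was the site where the shSETD7 list stood apart. Its scores were 328 in vehicle, 1450 in shCTL and 72 in shSETD7, at percentiles 88.3, 94.4 and 45.3. In LNCaP it scored 443, 433 and 569 with DMSO, GSK2879552 and the combination, at percentiles 76.9, 77.8 and 80.8. The percentile was below 50 in shSETD7 and above 75 in the other 5 lists. Over all shCTL peaks at or above percentile 90 that overlapped a shSETD7 peak, 8.39% of 6582 had a shSETD7 percentile under 50. The shSETD7 peak was 644 bp wide, the widest at this site, and the shCTL peak 457 bp. Among the 1197 shSETD7 peaks with the same score of 72 the median width was 312 bp, and 4.59% were at least as wide. The shSETD7 list also had a peak on either side, at site 12 (percentile 63.6) and at site 14 (1.81). Site 12 was also a peak in vehicle and with GSK2879552. Site 14 was in the shSETD7 list alone and scored 16, where the lowest score of that list is 13. Whether site 13 changed with the knockdown was not tested, since the lists differ in length, their depth is unknown and their scores were not compared directly.

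Site 29, at chr19:51574087-51574701, lay 229 kb from site 6. It had the highest LNCaP percentiles of the window, with scores of 1326 for DMSO, 689 for GSK2879552 and 1315 for the combination, at percentiles 97.2, 89.4 and 96.1. In 22Rv1 it scored 885 in shCTL and 1194 in shSETD7, at percentiles 90.1 and 95.1. The vehicle list alone placed it low, with a score of 68 at percentile 38.0. Of the DMSO peaks at or above percentile 90 that overlapped a vehicle peak, 14% had a vehicle percentile under 50.

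**Figure D2:**
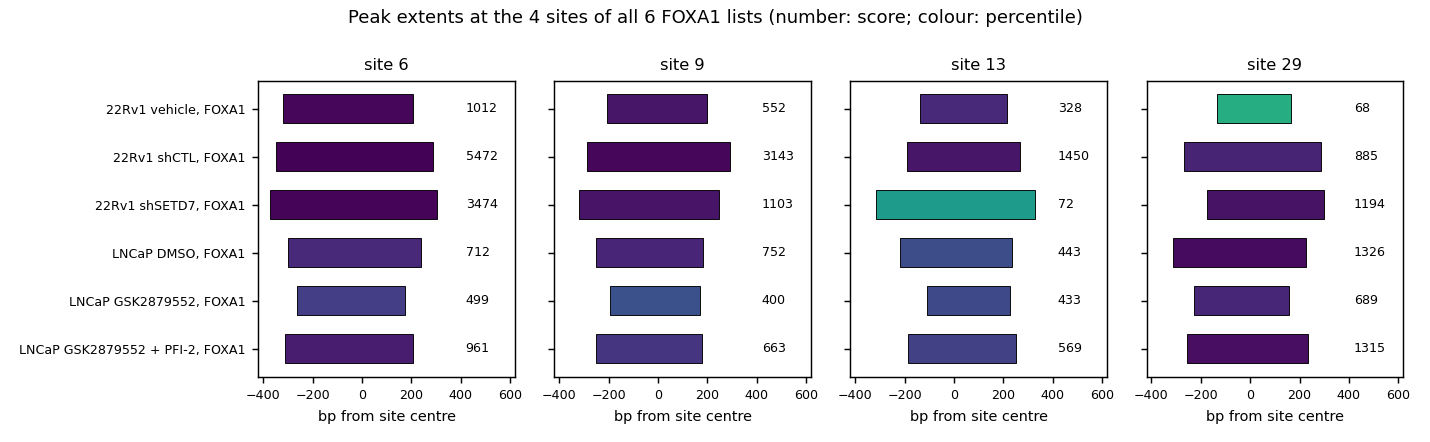
Extent of the FOXA1 peak in each of 6 lists at sites 6, 9, 13 and 29, in bp from the site's centre, with the score printed at the right and the within-list percentile as colour (dark is high). The pale bars are the shSETD7 peak of site 13 (score 72) and the vehicle peak of site 29 (score 68).

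Sites 11, 15, 19 and 30 were in 4 or 5 of the FOXA1 lists, each with a different list or lists missing. Site 11, at chr19:51362111-51362493, was in every FOXA1 list but DMSO. Its scores were 108 in vehicle, 363 in shCTL, 681 in shSETD7, 268 with GSK2879552 and 133 with the combination, at percentiles 59.7, 76.5, 90.9, 60.5 and 20.7. Site 15, at chr19:51392798-51393335, was in every list but shCTL. It scored 128 in vehicle, 142 in shSETD7, 371 with DMSO, 205 with GSK2879552 and 261 with the combination, at percentiles 65.7, 65.6, 71.2, 48.4 and 54.2. Over all FOXA1 sites, 0.406% had this pattern, in all lists but shCTL. Such shares were not computed for the patterns of sites 11, 19 and 30, so site 15 cannot be called rarer than they are. Site 19 (chr19:51424946-51425735) was missing from the vehicle and GSK2879552 lists. It joined peaks spread over 790 bp, and its DMSO and combination peaks lay 132 bp apart, so they did not overlap each other. Site 30 (chr19:51595221-51596125) was in the 3 LNCaP lists and shCTL, with its highest percentile, 70.6, in the combination.

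**Figure D3:**
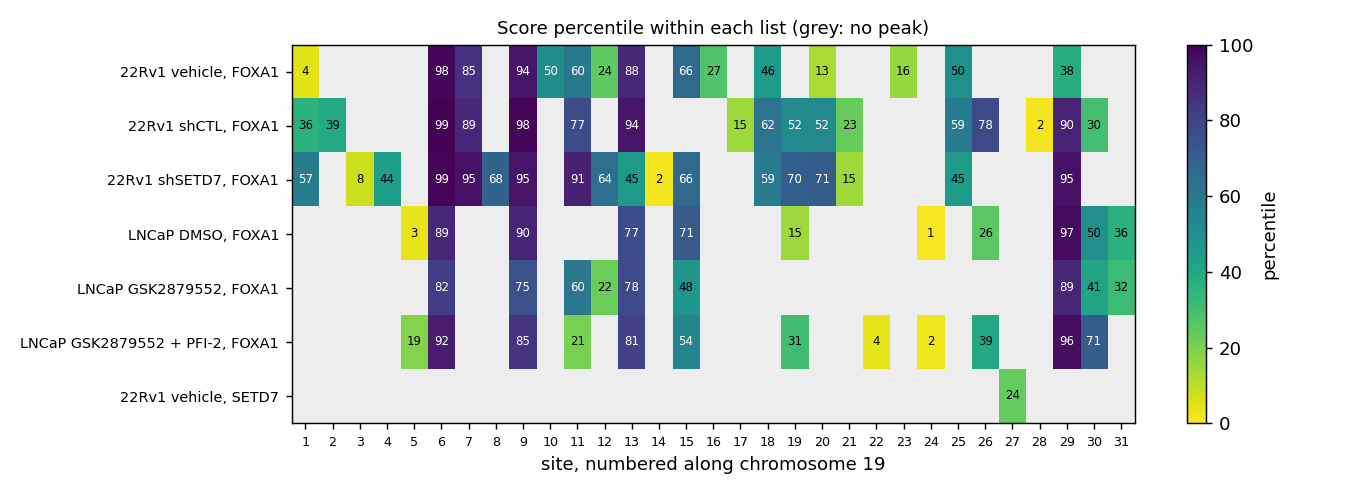
Within-list score percentile of each of the 31 sites (columns, numbered along chromosome 19) in each of the 7 lists (rows); grey cells hold no peak. Sites 6, 9, 13 and 29 are filled in all 6 FOXA1 rows, sites 1, 7, 18, 20 and 25 in the 3 rows of 22Rv1 FOXA1 only, and site 27 in the SETD7 row only.

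The next comparison asked which FOXA1 sites of the locus were found after SETD7 knockdown, from the shCTL list to the shSETD7 list. Of the 17 shCTL peaks in the window, 12 overlapped a shSETD7 peak, or 70.6% (46.9 to 86.7). Over all shCTL peaks the share was 44.5%, and over chromosome 19 it was 63.8%, and the window thus lay nearer to its chromosome than to the whole list. Of the 11 window peaks in the higher-scoring 50% of the shCTL list, 10 were found, against 60.4% of all such peaks. All 4 shCTL peaks of the window at or above percentile 90 (sites 6, 9, 13 and 29) were found, where the share over all such peaks was 78.4%. For these higher-scoring peaks the chromosome 19 shares were not computed, so the counts only describe the window.

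The vehicle list, compared with the same shCTL and shSETD7 lists, gave 10 of the 17 shCTL peaks, or 58.8% (36.0 to 78.4), against 51.3% over all shCTL peaks. Those 10 peaks, at sites 1, 6, 7, 9, 11, 13, 18, 20, 25 and 29, were all in the shSETD7 list too (100%, 72.2 to 100), where 58.1% of all shCTL peaks with a vehicle peak were. The chromosome 19 value of this last share was not computed. Of the 15 vehicle peaks in the window, 12 overlapped a shSETD7 peak, or 80% (54.8 to 93.0), against 43.4% over all vehicle peaks and 61.7% on chromosome 19. In this window, no FOXA1 site found in both lists without the SETD7 hairpin was missing after knockdown.

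The 5 shCTL peaks without a shSETD7 peak were at sites 2, 17, 26, 28 and 30, and none of them was in the vehicle list. Their shCTL percentiles were 38.8, 14.7, 78.0, 1.73 and 29.7. Site 26 (chr19:51558529-51558918) was thus the one site above percentile 50, with a shCTL score of 388; it was also a peak with DMSO (133) and with the combination (189).

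In the other direction, 12 of the 18 shSETD7 peaks overlapped a shCTL peak, or 66.7% (43.7 to 83.7). The share was 58.2% over the list and 69.5% on chromosome 19, so the window lay slightly below its chromosome. The 6 without one were at sites 3, 4, 8, 12, 14 and 15, with shSETD7 percentiles of 7.73, 44.2, 68.0, 63.6, 1.81 and 65.6. Sites 12 and 15 were also vehicle peaks, and sites 3, 4, 8 and 14 were in the shSETD7 list alone. Of the 18 shSETD7 peaks, 12 overlapped a vehicle peak (66.7%), against 43.7% over the list and 42.9% on chromosome 19.

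**Figure D4:**
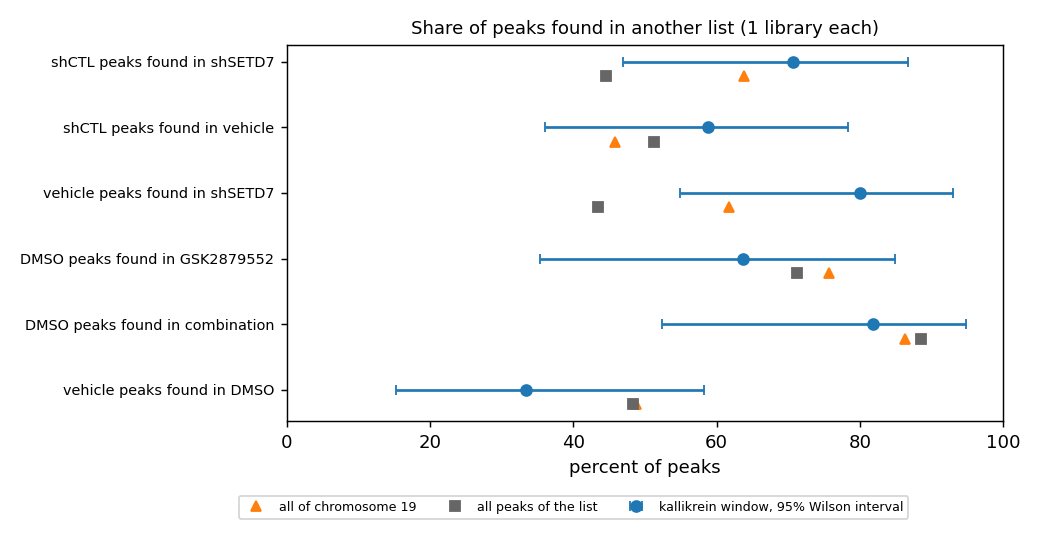
Share of peaks of one list found in another, in percent, for the kallikrein window (circles with 95% Wilson intervals, counting error only), for chromosome 19 (triangles) and for the whole list (squares), with 1 library per group. Circles lie at 70.6% for shCTL peaks found in shSETD7 and at 63.6% for DMSO peaks found with GSK2879552.

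In LNCaP, GSK2879552 and DMSO were compared to ask which sites of the locus remained under LSD1 inhibition. Of the 11 DMSO peaks, 7 overlapped a GSK2879552 peak, or 63.6% (35.4 to 84.8), close to the 71.2% over all DMSO peaks. The 5 DMSO peaks above percentile 50, at sites 6, 9, 13, 15 and 29, were all found, against 94.8% of all such peaks. The 4 not found were at sites 5, 19, 24 and 26, at DMSO percentiles 3.36, 14.7, 1.31 and 25.5, with scores of 79, 109, 69 and 133. These were weak peaks of the list, whose lower-scoring 50% lacked a GSK2879552 peak in 52.5% of cases; in the window this was 4 of 6.

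Of the 9 GSK2879552 peaks, 7 overlapped a DMSO peak (77.8%, 45.3 to 93.7), against 89.6% over the list. The other 2 were at sites 11 and 12, with GSK2879552 scores of 268 and 131 at percentiles 60.5 and 22.4. Site 12 (chr19:51371714-51372048) was also a peak in vehicle (53) and shSETD7 (131), and lay 536 bp before site 13.

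The combination was examined to ask whether sites missing with GSK2879552 were present when PFI-2 was added. Of the 4 DMSO peaks missing with GSK2879552, 3 overlapped a combination peak, at sites 5, 24 and 26, with combination scores of 126, 82 and 189 at percentiles 18.6, 2.29 and 39.5. Over the whole list 67.9% of such peaks did. The combination list was longer than the GSK2879552 list (83833 against 64217 peaks), and these 3 peaks were weak in it. Of all 11 DMSO peaks, 9 overlapped a combination peak, or 81.8% (52.3 to 94.9), against 88.6% over the list; sites 19 and 31 gave the other 2. Of the 12 combination peaks, 9 overlapped a DMSO peak (75%, 46.8 to 91.1), against 84.8% over the list. The combination peak at site 22 (score 88, percentile 3.79) was in no other list. No library with PFI-2 alone was analysed here.

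The lines shared some sites of the locus, among them sites 6 and 9, and differed at others, among them site 7. In the window, 5 of the 15 vehicle peaks of 22Rv1 overlapped a DMSO peak of LNCaP, or 33.3% (15.2 to 58.3). The share was 48.3% over the vehicle list and 48.7% on chromosome 19. In reverse, 5 of the 11 DMSO peaks overlapped a vehicle peak (45.5%, 21.3 to 72.0). That share was 39.2% over the DMSO list and 46.6% on chromosome 19. The 5 sites were 6, 9, 13, 15 and 29. By merged sites, 10 of 30 were in both lines. Of the rest, 16 were in 22Rv1 lists only (53.3%, 36.1 to 69.8), against 44.9% over all FOXA1 sites, and 4 in LNCaP lists only (13.3%, 5.31 to 29.7), against 25.7%.

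Sites 1, 7, 18, 20 and 25 were in all 3 FOXA1 lists of 22Rv1 and no LNCaP list, or 16.7% of the 30 (7.34 to 33.6), against 3.90% over all FOXA1 sites. The share of this pattern on chromosome 19 was not computed. That chromosome differed from the whole list in other shares, such as shCTL peaks found in shSETD7 (63.8% against 44.5%). Site 7, at chr19:51347547-51347913, was the strongest of the sites with this pattern. It scored 279 in vehicle, 775 in shCTL and 1178 in shSETD7, at percentiles 85.5, 88.5 and 95, and it lay 1644 bp after site 6, which was a peak in every FOXA1 list. Of the shSETD7 peaks at or above percentile 90, 12.4% were in no LNCaP list; in the window this was 1 of 5, the peak of site 7. Sites 18, 20 and 25 reached percentiles of at most 61.8, 70.6 and 58.8, and site 1 at most 57.5.

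The 4 LNCaP-only sites were weak. Sites 5 and 24 were in the DMSO and combination lists, at percentiles up to 18.6 and 2.29. Site 31 (chr19:51596472-51596821) was in the DMSO and GSK2879552 lists at percentiles 36.1 and 31.7, and site 22 was described above. Site 21 was in shCTL and shSETD7 at percentiles 23.1 and 14.8.

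Of the 11 sites in 1 FOXA1 list, 9 stood at or under percentile 50. The same share over all FOXA1 sites in 1 list was not computed, so this count only describes the window. The vehicle list alone held sites 10, 16 and 23 (percentiles 50.3, 27.3 and 15.5). Sites 2, 17 and 28 were in shCTL alone. The exceptions above percentile 50 were site 8 of shSETD7 (chr19:51351466-51351708, score 157) and site 10 (chr19:51355341-51355539, score 86). Both lay between sites 7 and 11, on either side of site 9.

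The SETD7 list had 1 peak in the window, site 27 at chr19:51559856-51560125, with a score of 21 at percentile 23.6 of its list, whose median score is 28. It overlapped no FOXA1 peak. The nearest FOXA1 site was 26, 937 bp away. Over the SETD7 list, 19% of peaks overlapped a peak of at least 1 FOXA1 list. Of the 189 windows of chromosome 19 with a FOXA1 site, 107 held no SETD7 peak. At the 4 FOXA1 sites found in all 6 lists, no SETD7 peak was listed in vehicle cells; occupancy below the threshold of the list was not detectable here.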

How the data were processed

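Each of the 7 libraries had 1 peak list, with 1 library per group, and groups were taken from sample titles. Cells were crosslinked with 1% formaldehyde, per the labels' protocols. Per the submitters' processing notes, the tools were MACS2 2.1.4, SAMtools 1.9, BWA 0.7.17-r1188 and FastQC 0.11.9, on build hg19. Thresholds, input controls and depth were not analysed here. The authors deposited 1 score per peak, whose definition is not given. Scores started at 13 in 22Rv1 lists and at 40 to 48 in LNCaP lists, so weak peaks are not listed alike, and a longer list finds more of another list's peaks.

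All deposited peaks lay on the autosomes, X or Y. Positions are 1-based. Peaks with a midpoint in the window were merged, and overlap of at least 1 bp counted as found, against the whole other list. Wilson intervals have 95% confidence. The software was matplotlib 3.10.9, scipy 1.17.1, pandas 2.3.3, numpy 2.4.6 and Python 3.11.15. Overlap code was tested on simulated data; for shCTL peaks found in shSETD7, it and bedtools 2.31.1 both counted 37413. The window, sites to name and alternatives were chosen with earlier results of these data known. Named were sites of all 6 FOXA1 lists, those differing between paired conditions, the strongest of 1 line, and SETD7 sites; the others are given to account for every site. Motifs in peaks needed hg19 sequence, which was not used here.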

Additional observations from a re-analysis of the deposited data

How the results depend on the processing

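Of 40 alternatives over 7 results, 34 stayed within the interval of the reported share or within 1.5 times the reported count, and 6 did not. With equal-sized lists of 63952 peaks, DMSO peaks found with GSK2879552 came to 87.5% of 8, against 63.6% of 11. DMSO peaks found with the combination came to 100% with any peak within 1 kb and 100% in the higher-scoring 50%, against 81.8%. In the higher-scoring 50% of each list there were 17 merged sites instead of 31, and 2 sites in all 6 FOXA1 lists instead of 4. With 500 kb added on each side, SETD7 peaks numbered 2 instead of 1, in a window 4.33 times as wide. Shorter lists, looser rules and wider windows change these values by construction. Added after the data were examined, leaving out the shCTL or the DMSO list gave 5 sites in all the others, and leaving out any other FOXA1 list gave 4. No alternative of the shCTL share after knockdown left its interval (64.0% to 80%, against 70.6%). The windows hold 9 to 18 FOXA1 peaks per list, so the intervals of the shares are wide. Depth is unknown.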
